A study of Mus musculus with 12 samples.

Results

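The genes described here are the ATP-binding cassette (ABC) genes of the A to G groups, read from their symbols, without the pumps that clear Hoechst dye from cells. Members were all genes whose symbol begins with Abca to Abcg and a number, apart from the pump genes Abcg2, Abcb1a and Abcb1b. Abca3, a marker gene of alveolar type II cells, was left out as well. This gave 41 of the 18194 genes read, out of 45 genes with such a symbol. The rule used symbols and no measured value, although it was set with earlier results of these data known. Where a gene had several probe sets, the set with the highest mean over all 12 arrays was read.

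The cells were A2C12, a lung tumour line from a mouse that carries c-myc and c-raf transgenes on the C57BL/6 background, so all groups carry both transgenes. The promoter that drives the transgenes is not given in the sources used here. The 4 groups were SP cells with anti-EpCAM, non-SP cells with anti-EpCAM, SP cells without antibody and non-SP cells without antibody, each with 3 biological replicates. The antibody, against an adhesion protein of epithelial cells, was applied at 100 µg/ml for 48 h. SP stands for side population, the cells that keep little Hoechst dye in a sort, and non-SP cells are the others. Per the labels' protocols, which share 1 text for all groups, staining used the dye at 5 µg/ml over 90 min, with or without 50 µM of the pump inhibitor reserpine. The labels do not say for which samples reserpine was present. Transcripts were read on Affymetrix mouse arrays, and all values are log2 of the summarised probe set intensity. All groups are derivatives of 1 line, so the 3 replicates measure the spread between samples of that line.

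ABC proteins bind and split ATP, and most of them move a substrate across a membrane. Members of the A and G groups mainly export sterols and phospholipids, the C group exports conjugates of glutathione and other organic anions, and the D group carries fatty acids into peroxisomes. Several B group proteins sit in mitochondria or lysosomes. The sulfonylurea receptors of the C group regulate potassium channels, and the E and F groups carry no membrane part and act on ribosomes. In tumour cells the family is best known for drug efflux, and in lung for lipid export from alveolar type II cells.

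Arrays of SP and of non-SP cells with the same replicate number and treatment had processed values that were tied to each other. Between 914 and 2000 of the 45101 probe sets (2.03% to 4.43%) held exactly the same value on both arrays of such a pair, to the last deposited digit. Between the other 60 combinations of arrays, 0 to 4 probe sets did. Among the members 11 of 246 within-pair comparisons were such ties, in 8 genes, and Abcg3 was tied in anti-EpCAM pairs 1 and 3. The 2 arrays of a number and treatment are therefore called a pair below, although the labels do not state a pairing. Whether a pair shares a culture, or only a joint summarisation of its arrays, cannot be told apart from these values. Differences between fractions lie within pairs, and differences between treatments run across them.

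Array medians over genes ran from 6.91 to 7.19, and the difference between the 3' and 5' probe sets of actin, a measure of RNA integrity, from 0.183 to 1.03. Both arrays of anti-EpCAM pair 2 had the largest such differences, at 1.03 in SP and 0.895 in non-SP cells. In untreated pair 3 the SP array had 0.733 and the non-SP array 0.404. Epithelial markers were read above the level of olfactory receptor genes for 5 of 6 genes, and fibroblast markers for 5 of 6. Alveolar type II markers passed that level for 3 of 7 genes (Sftpb, Abca3 and Etv5), and Sftpc and Nkx2-1 were among those that did not. Leukocyte markers passed it for 3 of 7 genes and endothelial markers for 1 of 5.

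No ABC gene passed the threshold of an adjusted p under 0.05 in any of 7 contrasts (limma, Benjamini-Hochberg over all genes), and neither did any other gene, so that 0% of all genes were called in each. They compared SP with non-SP cells in treated, in untreated and over all cells, anti-EpCAM with untreated cells in SP, in non-SP and over both, and tested the interaction. The intervals nevertheless bound the differences. The 95% interval lay inside 2-fold in either direction for 39 of 41 members between SP and non-SP cells under anti-EpCAM and for 39 without antibody. It did so for 38 members between treated and untreated SP cells and for 37 in non-SP cells. The distance from a difference to its interval bound had a median of 0.43 log2 units within a fraction or treatment and of 0.61 for the interaction. These intervals come from the fit without pairs. For SP against non-SP and for the interaction they therefore include spread between pairs.

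The means of 18 members lay at or below the highest mean of 39 olfactory receptor genes, which ran from 3.41 to 6.17, and those of 23 members lay above it. Olfactory receptors stand here as a background mark for transcripts that a lung line should lack, and 40.7% of all genes had means at or below the highest of them. Because probe sets differ in how brightly they bind, these values give no order of transcript amounts between genes. Of the sterol and phospholipid exporters, Abca1, Abca2, Abca5, Abca7, Abca9, Abcb4, Abcg4 and Abcg8 lay above that mark, and Abca6, Abca8a, Abca8b, Abcg1 and Abcg5 did not. Of the organic anion exporters, Abcc1, Abcc3, Abcc4, Abcc5 and Abcc10 lay above it, and Abcc2, Abcc6, Abcc12 and the bile salt pump gene Abcb11 did not. Abcb6, Abcb8, Abcb9 and Abcb10, Abcd3 and Abcd4, and all 4 of Abce1, Abcf1, Abcf2 and Abcf3 lay above it. Both sulfonylurea receptor genes, Abcd2, Abcg3, and the A group genes Abca4, Abca12, Abca13, Abca14 and Abca16 did not pass it.

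**Figure D1:**
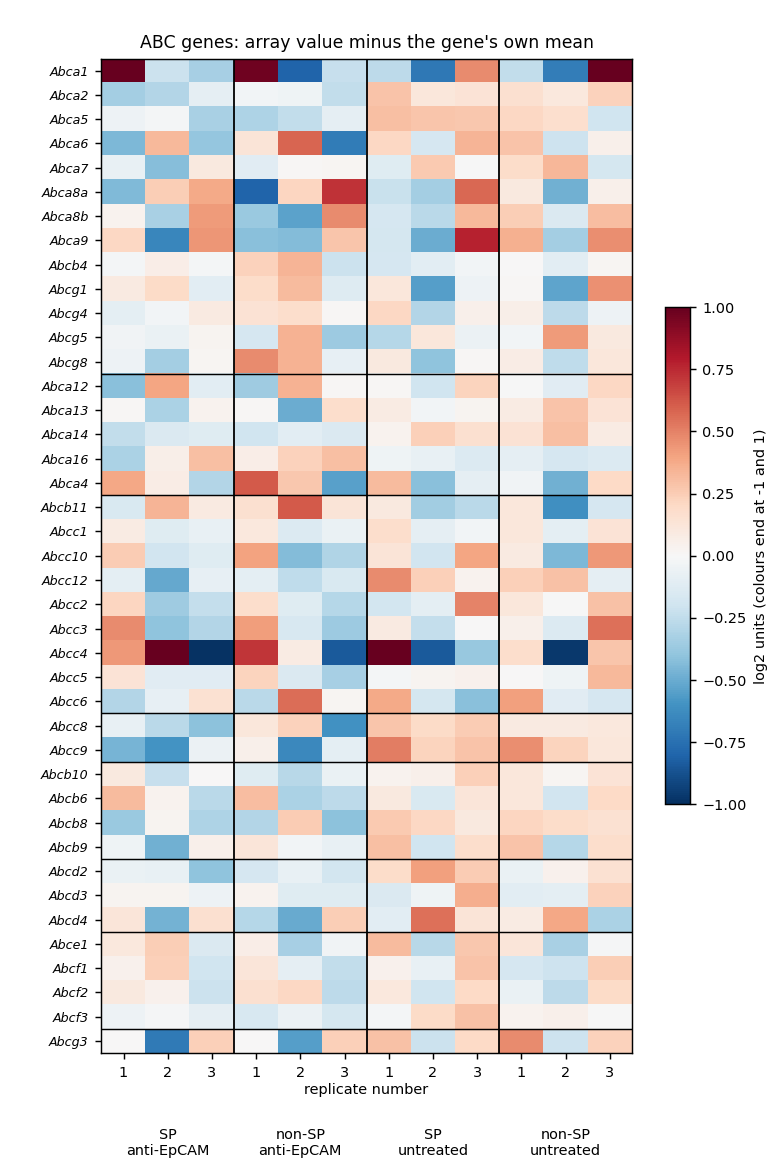
Deviation of each of the 41 ABC genes (rows, ordered by role) from its own mean over 12 arrays, in log2 units, with SP anti-EpCAM, non-SP anti-EpCAM, SP untreated and non-SP untreated arrays from left to right and replicate numbers below. Columns of one number and treatment resemble each other across the fractions, and Abca1 and Abcc4 hold the deepest colours.

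The plot of deviations shows that most of the variation of the family ran between pairs of arrays. The median standard deviation over 12 arrays was 0.26 log2 units over the members and 0.26 over all genes, and within pairs it was 0.15 over both. Steady and variable members were found in the same role group. Abcc1, an exporter of glutathione conjugates and of the leukotriene C4, had a standard deviation of 0.11, and 97.1% of all genes varied more.

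The promoters of the members that the results turn on are shown here, in the RefSeq annotation of build GRCm38.p6, from 250 bases before to 50 bases after the annotated start. Abcc9, Abca2 and Abca14 had lower values on all 6 anti-EpCAM arrays than on all 6 untreated arrays, and Abcc4 and Abca1 varied most between arrays. Capitals mark matches, on either strand, to the E-box (CACGTG), the CCAAT box (CCAAT), the GC box (GGGCGG), the TATA box (TATAAA) or the core of the antioxidant response element (TGACNNNGC), and adjoining or overlapping matches form 1 run of capitals.
Abcc9 (chr6:142702225-142702524, minus strand): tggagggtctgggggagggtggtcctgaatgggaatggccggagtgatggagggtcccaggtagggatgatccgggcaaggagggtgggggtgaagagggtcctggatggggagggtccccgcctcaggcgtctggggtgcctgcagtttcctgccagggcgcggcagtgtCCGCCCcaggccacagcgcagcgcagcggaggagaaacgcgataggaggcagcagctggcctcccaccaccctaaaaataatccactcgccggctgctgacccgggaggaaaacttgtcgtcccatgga
Abca2 (chr2:25428349-25428648, plus strand): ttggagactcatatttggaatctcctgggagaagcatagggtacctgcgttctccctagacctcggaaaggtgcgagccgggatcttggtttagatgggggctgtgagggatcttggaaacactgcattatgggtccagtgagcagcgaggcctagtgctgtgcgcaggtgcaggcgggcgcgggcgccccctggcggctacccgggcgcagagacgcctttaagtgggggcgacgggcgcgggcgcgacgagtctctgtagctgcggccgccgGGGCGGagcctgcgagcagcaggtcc
Abca14 (chr7:120203714-120204013, plus strand): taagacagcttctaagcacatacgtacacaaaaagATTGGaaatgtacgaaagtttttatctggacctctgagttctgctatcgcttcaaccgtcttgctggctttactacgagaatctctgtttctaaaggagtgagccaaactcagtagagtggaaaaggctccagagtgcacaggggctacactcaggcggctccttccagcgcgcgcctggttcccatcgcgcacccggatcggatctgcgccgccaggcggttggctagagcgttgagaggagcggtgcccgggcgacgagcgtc
Abcc4 (chr14:118706170-118706469, minus strand): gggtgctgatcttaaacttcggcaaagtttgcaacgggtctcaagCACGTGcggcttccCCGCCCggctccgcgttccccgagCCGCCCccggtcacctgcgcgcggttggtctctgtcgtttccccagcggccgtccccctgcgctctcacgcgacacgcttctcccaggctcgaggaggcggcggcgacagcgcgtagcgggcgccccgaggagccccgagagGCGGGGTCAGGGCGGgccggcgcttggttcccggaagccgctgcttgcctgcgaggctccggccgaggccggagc
Abca1 (chr4:53159846-53160145, minus strand): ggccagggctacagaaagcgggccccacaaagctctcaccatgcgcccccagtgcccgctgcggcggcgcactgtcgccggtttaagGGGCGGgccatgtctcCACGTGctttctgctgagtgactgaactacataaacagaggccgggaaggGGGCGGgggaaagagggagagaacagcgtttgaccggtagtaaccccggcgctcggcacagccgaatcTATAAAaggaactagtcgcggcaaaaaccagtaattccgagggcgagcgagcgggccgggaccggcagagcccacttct

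The windows of Abcc9 and Abca2 each hold 1 GC box, that of Abca14 holds 1 CCAAT box, and none of these holds an E-box. The window of Abcc4 holds 3 GC boxes, 1 E-box and 1 antioxidant element core, and that of Abca1 holds 2 GC boxes, 1 E-box and 1 TATA box. A second RefSeq window of Abcc4 (chr14:118676882-118677181, minus strand), not shown, holds 1 antioxidant element core, no GC box and no E-box. A promoter window was found for 31 of the 41 members, 36 windows in all. The GC box occurred in 47.2% of the members' windows, against 35.7% of all 32851 windows of this length, and the E-box, a site that Myc proteins can bind, in 13.9%, against 7.15%. The CCAAT box occurred in 36.1%, against 37.4%, the TATA box in 13.9%, against 13.6%, and the antioxidant element core in 16.7%, against 12.4%. The median number of CpG dinucleotides in a window was 18 for the members and 7 for all windows. A match describes the letters in the window and is not shown to be a bound site.

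The antibody comparison asks whether ABC transcripts differed after 48 h with anti-EpCAM. In bulk RNA, fewer cells with a transcript and less of it per cell cannot be told apart. Values ran lower for most genes of the array, with a median difference over all genes of -0.12 log2 units in SP cells, -0.10 in non-SP cells and -0.11 over both. The members' medians were -0.06, -0.13 and -0.11 in the same order, close to those of the array as a whole. Within a fraction, the widest differences were those of Abcc9, Abcd2, Abcc12, Abcc8 and Abca2 below 0 and of Abcb11 and Abca16 above 0.

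Abcc9 encodes the sulfonylurea receptor that pairs with potassium channels in heart and smooth muscle. Its values were 4.53, 4.39 and 4.94 in SP and 5.04, 4.35 and 4.89 in non-SP cells with anti-EpCAM, against 5.50, 5.22 and 5.28 in SP and 5.45, 5.22 and 5.11 in non-SP cells without antibody. All 6 treated arrays lay below all 6 untreated arrays, and the lowest values came from replicate 2 of both treated fractions. The difference was -0.71 ± 0.21 (SE) in SP cells, with a 95% interval of -1.16 to -0.26, and -0.50 ± 0.21 in non-SP cells. Over both fractions it was -0.60 ± 0.19, a ratio of 0.658 of treated to untreated cells (limma, adjusted p = 0.991). With every array centred on its median the SP difference was -0.59, and without anti-EpCAM pair 2 the difference was -0.60 in SP and -0.29 in non-SP cells. The other probe sets of this gene did not follow, with differences of 0.03 and 0.13 over both fractions at means of 4.30 and 3.31.

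The second sulfonylurea receptor, Abcc8, known from the insulin-secreting cells of the pancreas, had 4.43, 4.24 and 4.09 in SP and 4.62, 4.74 and 3.91 in non-SP cells with anti-EpCAM, against 4.79, 4.70 and 4.76 in SP and 4.60, 4.60 and 4.62 in non-SP cells without antibody. The groups did not overlap in SP cells and overlapped in non-SP cells. The difference was -0.50 ± 0.20 in SP and -0.18 ± 0.20 in non-SP cells, and another probe set gave -0.37 and -0.41.

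Abca2 encodes a lipid transporter of lysosomes and endosomes that is best known from myelin-forming cells. It had 6.15, 6.19 and 6.40 in SP and 6.46, 6.44 and 6.23 in non-SP cells with anti-EpCAM, against 6.77, 6.60 and 6.62 in SP and 6.64, 6.59 and 6.71 in non-SP cells without antibody. The 12 arrays split by treatment without overlap, and unlike Abcc9 this gene lay above the olfactory receptor mark. The difference over both fractions was -0.35 ± 0.15, with a 95% interval of -0.68 to -0.01 and a ratio of 0.787 (limma, adjusted p = 0.991). Relative to the median of all genes it was -0.23. Abca14, a testis gene of the A group in mice, was the third member without overlap over 12 arrays, at 2.99, 3.08 and 3.11 in SP and 3.03, 3.13 and 3.09 in non-SP cells with anti-EpCAM, against 3.26, 3.47 and 3.39 in SP and 3.37, 3.53 and 3.31 in non-SP cells without antibody. Its mean of 3.23 lay below that of every olfactory receptor gene. The difference was -0.32 ± 0.15 over both fractions.

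Over all members, 3 of 41 lay lower on all 6 treated arrays than on all 6 untreated ones, against 0.907% of all genes, and 0 lay higher, against 0.0605%. An unadjusted p under 0.05 over both fractions was reached by 3 members with lower values (Abcc9, Abca2 and Abcc12), against 2.36% of all genes, and by 0 with higher values, against 0.17%. With 1 pair left out in turn, the count with such a p in either direction was 1 to 2. It was 1 after a second quantile normalisation or with the replicate number as a block. With only genes above the median level, which left 18 members, it was 0. Shares of all genes under these settings are not given here, so a change in the whole array is not told apart.

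**Figure D2:**
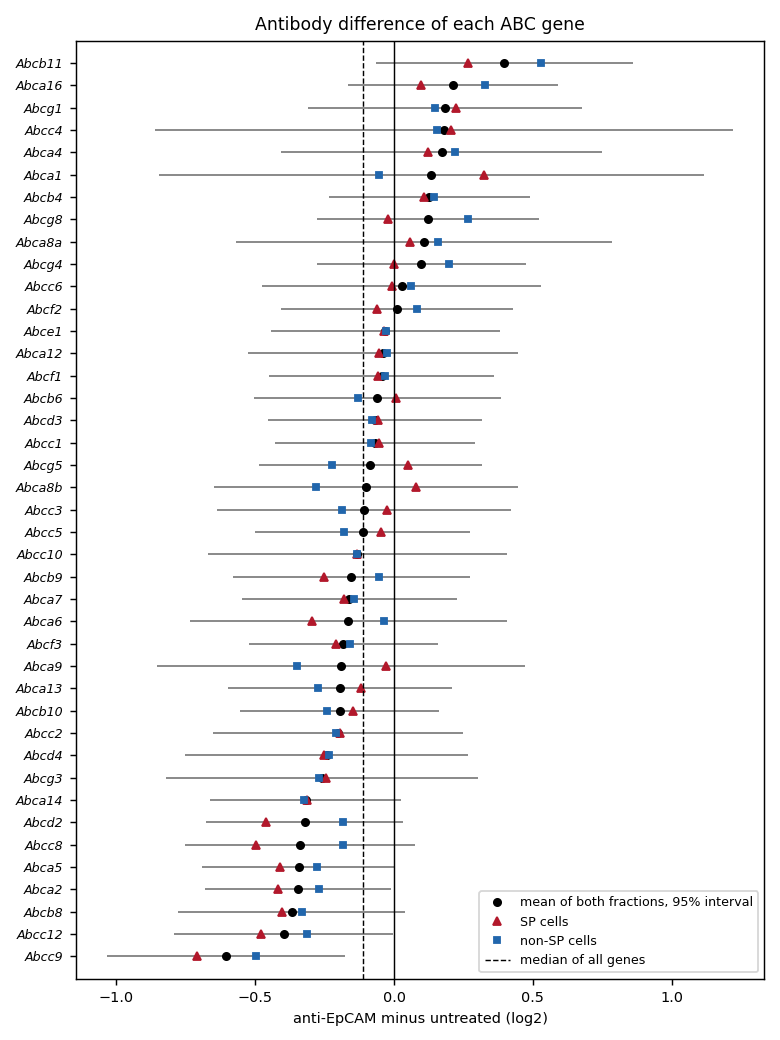
Difference between anti-EpCAM and untreated cells for each of the 41 ABC genes, in log2 units on the horizontal axis, with black points for the mean of both fractions and its 95% interval, triangles for SP cells, squares for non-SP cells and a dashed line at the median of all genes, -0.11. Abcc9 has the lowest difference, -0.60, and Abcb11 the highest, 0.40, and the interval of Abca1 is among the widest.

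Within SP cells 8 members lay lower on all 3 treated arrays than on all 3 untreated ones, against 8.04% of all genes, and the same 8 had an unadjusted p under 0.05, against 4.48%. They were Abcc9, Abcc8, Abcc12, Abcd2, Abca2, Abca5, Abca14 and Abcb8. With every array centred on its median, 1 of the 41 members (Abcc9) had such a p in either direction, against 2.1% of all genes. After a second quantile normalisation 2 did, Abcb11 and Abcg1, both higher with anti-EpCAM, against 2.34%. The count was 4 without SP anti-EpCAM replicate 3, and 5 without SP anti-EpCAM replicate 2 or without untreated SP replicate 1 or 3. It was 2 with the mean of all probe sets of a gene, and 1 with only genes above the median level, which left 18 members. For left-out arrays, mean probe sets and the level filter, shares of all genes are not given here. A change in the whole array is therefore not told apart from 1 in the members. Without anti-EpCAM pair 2 the SP differences of Abcb8, Abcd2, Abca5 and Abca14 were wider, at -0.53, -0.51, -0.47 and -0.33. Those of Abcc9, Abcc8, Abcc12 and Abca2 were narrower, at -0.60, -0.49, -0.34 and -0.39. Of the 8, the values of Abcc9, Abcc8, Abcc12, Abcd2 and Abca14 did not pass the olfactory receptor mark. The olfactory receptor genes themselves had a median difference of -0.25 in SP cells and 0.05 in non-SP cells. The part of this background in the members' differences was not tested.

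Abcd2, a transporter of very long chain fatty acids in the peroxisome membrane, had 4.33, 4.32 and 4.00 in SP cells with anti-EpCAM, against 4.58, 4.81 and 4.65 in untreated SP cells. Non-SP cells had 4.23, 4.32 and 4.22 with the antibody, against 4.33, 4.44 and 4.55 without. The groups were apart in both fractions, by -0.46 ± 0.15 in SP and by -0.18 ± 0.15 in non-SP cells. Abcd3 and Abcd4, which belong to the same group and act in peroxisomes and lysosomes, differed by -0.07 ± 0.17 and -0.24 ± 0.23 over both fractions.

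Abcc12, a C group gene whose substrate is not settled, had 5.25, 4.83 and 5.26 in SP cells with anti-EpCAM, against 5.82, 5.58 and 5.38 in untreated SP cells, and the values did not overlap. Its difference was -0.40 ± 0.18 over both fractions. A second probe set of the gene ran the other way, by 0.41. Abca5, a lysosomal lipid transporter gene, had 6.71, 6.75 and 6.44 in SP cells with anti-EpCAM, against 7.07, 7.04 and 7.03 without, a difference of -0.41 ± 0.16. Its second probe set gave 0.13 in SP cells. Abcb8, a mitochondrial transporter gene, had 8.06, 8.46 and 8.13 in SP cells with anti-EpCAM, against 8.70, 8.64 and 8.53 in untreated SP cells, a difference of -0.41 ± 0.19. Its second probe set, at a mean of 6.87, gave -0.09 in SP and -0.49 in non-SP cells, where the set read here gave -0.33. Without anti-EpCAM pair 2 the set read here gave -0.53 in SP and -0.54 in non-SP cells.

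Abcb4, which moves phosphatidylcholine into bile in liver, was the 1 member with higher values on all treated SP arrays, against 0.434% of all genes. It had 6.43, 6.52 and 6.43 with anti-EpCAM, against 6.29, 6.35 and 6.42 without, and the difference of 0.11 ± 0.16 was smaller than its standard error. No member had an unadjusted p under 0.05 in the higher direction in SP cells, against 0.11% of all genes.

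In non-SP cells 7 members lay lower on all 3 treated arrays, against 6.62% of all genes, namely Abcc9, Abcc12, Abcd2, Abca2, Abca14, Abcb10 and Abcf3. Only Abcc9 and Abca14 of these reached an unadjusted p under 0.05, 2 members against 2.7% of all genes. Together with Abcb11 they made 3 members. The count in both directions was 1 without untreated non-SP replicate 1, 0 without replicate 2 and 4 without replicate 3. It was 0 with only genes above the median level, and 5 with the mean of all probe sets of a gene. Shares of all genes under these settings are not given here, so these counts are no result about the members alone. Abcb10, a mitochondrial transporter of heme-making cells, had 8.36, 8.20 and 8.41 with anti-EpCAM, against 8.59, 8.50 and 8.62 without, and Abcf3 had 8.73, 8.83 and 8.71 with anti-EpCAM, against 8.92, 8.94 and 8.88 without. Abcb11 and Abca16 lay higher, 2 members against 1.19% of all genes, and Abcb11 alone had an unadjusted p under 0.05, against 0.517%.

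Abcb11, the bile salt export pump of liver, had 4.52, 4.97 and 4.49 in non-SP cells with anti-EpCAM, against 4.47, 3.74 and 4.18 without, and 4.20, 4.70 and 4.44 in SP cells with anti-EpCAM, against 4.45, 4.00 and 4.09 without. The difference was 0.53 ± 0.22 in non-SP cells and 0.27 ± 0.22 in SP cells, where the groups overlapped. Replicate 2 had the highest treated and the lowest untreated value in both fractions. Abca16, a mouse gene near Abca14 on chromosome 7, had 3.12, 3.28 and 3.35 in non-SP cells with anti-EpCAM, against 2.96, 2.88 and 2.92 without, a difference of 0.33 ± 0.17. Neither gene passed the olfactory receptor mark. Without anti-EpCAM pair 2 the difference of Abcb11 was 0.37 in non-SP and 0.14 in SP cells.

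**Figure D3:**
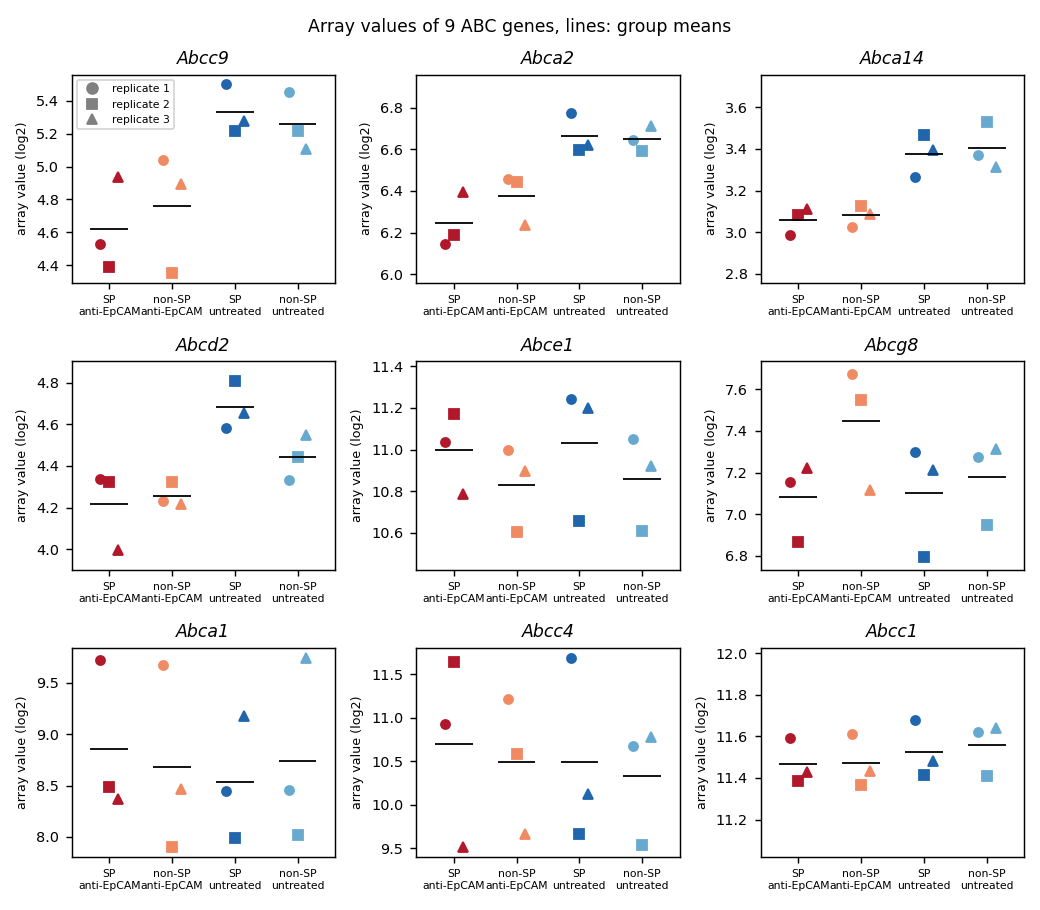
Array values (log2) of 9 ABC genes in SP anti-EpCAM, non-SP anti-EpCAM, SP untreated and non-SP untreated cells, from left to right, with symbols for replicate numbers and lines for group means. Abcc9, Abca2 and Abca14 split by treatment, Abca1 and Abcc4 spread over more than 1 log2 unit within groups, and Abcc1 stays within 11.37 to 11.68, with each vertical axis on its own range.

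Abca1, which loads cholesterol onto apolipoproteins, had 9.72, 8.48 and 8.37 in SP and 9.67, 7.90 and 8.47 in non-SP cells with anti-EpCAM, against 8.44, 7.99 and 9.18 in SP and 8.45, 8.02 and 9.74 in non-SP cells without antibody. Its high values came from anti-EpCAM pair 1 and untreated pair 3, so that the variation crossed the groups, which overlapped in both fractions. With a standard deviation of 0.69 it varied more than all but 159 genes (0.874%). The difference over both fractions, 0.13 ± 0.44, had a 95% interval of -0.85 to 1.12, which includes a 2-fold higher level. Abcg1, the partner of Abca1 in cholesterol export to lipoproteins, differed by 0.18 ± 0.22, and Abca7, a close relative of Abca1, by -0.16 ± 0.17.

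Abcc4, an exporter of cyclic nucleotides and prostaglandins, was the most variable member, with a standard deviation of 0.80 and 89 genes (0.489%) above it. Its values were 10.93, 11.65 and 9.51 in SP and 11.22, 10.58 and 9.66 in non-SP cells with anti-EpCAM, against 11.69, 9.66 and 10.12 in SP and 10.68, 9.54 and 10.78 in non-SP cells without antibody. It varied within pairs by a standard deviation of 0.48, against 0.24 for Abca1. SP exceeded non-SP by 1.07 in anti-EpCAM pair 2 and by 1.01 in untreated pair 1. The remaining pairs gave -0.28 and -0.15 with anti-EpCAM and 0.12 and -0.66 without. Its fraction difference, 0.19 ± 0.43 (-0.03 without anti-EpCAM pair 2), and its antibody difference, 0.18 ± 0.46, were both smaller than their standard errors.

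Of 6 further exporters of the C group, Abcc1 differed after anti-EpCAM by -0.07 ± 0.16 and Abcc3 and Abcc5, exporters of bile acid conjugates and of nucleotides, by -0.11 ± 0.24 and -0.11 ± 0.17. Abcc2, an apical pump of liver and kidney, differed by -0.20 ± 0.20 at a mean of 3.36, and Abcc6 and Abcc10 by 0.03 ± 0.22 and -0.13 ± 0.24. Treated and untreated values of these 6 genes overlapped in both fractions.

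The ribosome-associated members lay near 0 or the median of all genes. Abce1, which recycles ribosomes after termination, differed by -0.03 ± 0.18 after anti-EpCAM, Abcf1, which acts in the initiation of translation, by -0.04 ± 0.18, Abcf2 by 0.01 ± 0.19 and Abcf3 by -0.18 ± 0.15. Of the B group, Abcb6 of mitochondria and lysosomes differed by -0.06 ± 0.20, Abcb9, a lysosomal peptide transporter, by -0.15 ± 0.19 and Abcb10 by -0.20 ± 0.16. Abcg3, a mouse relative of Abcg2, differed by -0.26 ± 0.25.

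The fraction comparison asks whether the dye-excluding SP cells carry more of any further ABC transcript. Standard errors and intervals of fraction differences are those of the fit without pairs, so they include spread between pairs. Differences were small, and no member reached an unadjusted p under 0.05 in treated cells (0.698% of all genes), in untreated cells (0.022%) or over both (0.104%). With the pair as a block, 1 member reached it in treated cells (Abcg8, limma adjusted p = 0.628), against 7.21% of all genes, 1 in untreated cells (Abcd2, limma adjusted p = 1.00), against 1.68%, and 0 over both, against 2.13%. Abcg8 also reached it in treated cells after median centring and after a second quantile normalisation, against 0.918% of all genes in each. Without non-SP anti-EpCAM replicate 3 the count was 2 in treated cells and 1 over both treatments, with the share of all genes not given here. The median SP minus non-SP difference of the members was -0.04 with anti-EpCAM and 0.02 without, and that of all genes was -0.03 and 0.01. Over both treatments the 41 differences ran from -0.22 for Abcg8 to 0.19 for Abcc4. Without anti-EpCAM pair 2, whose arrays had the largest 3' to 5' actin differences, these 2 were -0.14 and -0.03, so that the difference of Abcc4 changed sign.

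Abce1, which recycles ribosomes, was among the 3 members with the highest moderated t in this contrast, with Abca5 and Abcf3. With anti-EpCAM it had 11.03, 11.17 and 10.79 in SP cells, against 11.00, 10.60 and 10.90 in non-SP cells, and without antibody 11.24, 10.66 and 11.20 in SP cells, against 11.05, 10.61 and 10.92 in non-SP cells. SP minus non-SP differences were 0.04, 0.57 and -0.11 in the anti-EpCAM pairs and 0.19, 0.05 and 0.28 in the untreated pairs, higher in SP in 5 of 6 pairs. The mean was 0.17 ± 0.14, a second probe set gave 0.19, and without anti-EpCAM pair 2 the mean was 0.07. Abcf1 was higher in SP in 5 of 6 pairs with a mean of 0.11 ± 0.13 (0.06 without anti-EpCAM pair 2), Abcf3 in 5 with 0.10 ± 0.10, and Abcf2 differed by 0.01 ± 0.13. The other probe sets of Abcf1 did not follow, with means of 0.003, 0.03, 0.04, -0.03 and -0.03. Those of Abcf3 gave 0.11 and 0.11, and that of Abcf2 gave 0.06. These 4 genes act on ribosomes and move no substrate.

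Among the transporters, Abca5 was higher in SP in 5 of 6 pairs, with differences of 0.26, 0.23 and -0.23 in the anti-EpCAM pairs and 0.09, 0.11 and 0.47 in the untreated pairs. Its mean was 0.15 ± 0.11, with a 95% interval of -0.09 to 0.40, and its second probe set gave -0.01. Abcb10 was also higher in 5 pairs, by 0.07 ± 0.10 on average. In all, 5 of 41 members were higher in SP in 5 or more pairs, against 6.80% of all genes, and 2 (Abcb11 and Abcc6) were lower, against 8.18%. No member was higher or lower in all 6 pairs, against 0.682% and 0.786% of all genes.

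In untreated cells the SP values of 3 members lay above all non-SP values, against 1.24% of all genes. Abcd2 had 4.58, 4.81 and 4.65 in SP, against 4.33, 4.44 and 4.55 in non-SP cells, a difference of 0.24 ± 0.15. Abca5 had 7.07, 7.04 and 7.03 in SP, against 6.97, 6.93 and 6.57 in non-SP cells, and Abcc8 had 4.79, 4.70 and 4.76 in SP, against 4.60, 4.60 and 4.62 in non-SP cells. Other probe sets of these genes mostly did not follow in untreated cells. They gave -0.16 for Abca5, -0.14 for Abcc8 and -0.01, -0.08 and 0.09 for Abcd2. No member lay lower in SP without overlap, against 1.13%. In treated cells none was apart in either direction, against 0.572% higher and 1.78% lower, and the 3 genes differed by -0.04, 0.09 and -0.17 there.

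**Figure D4:**
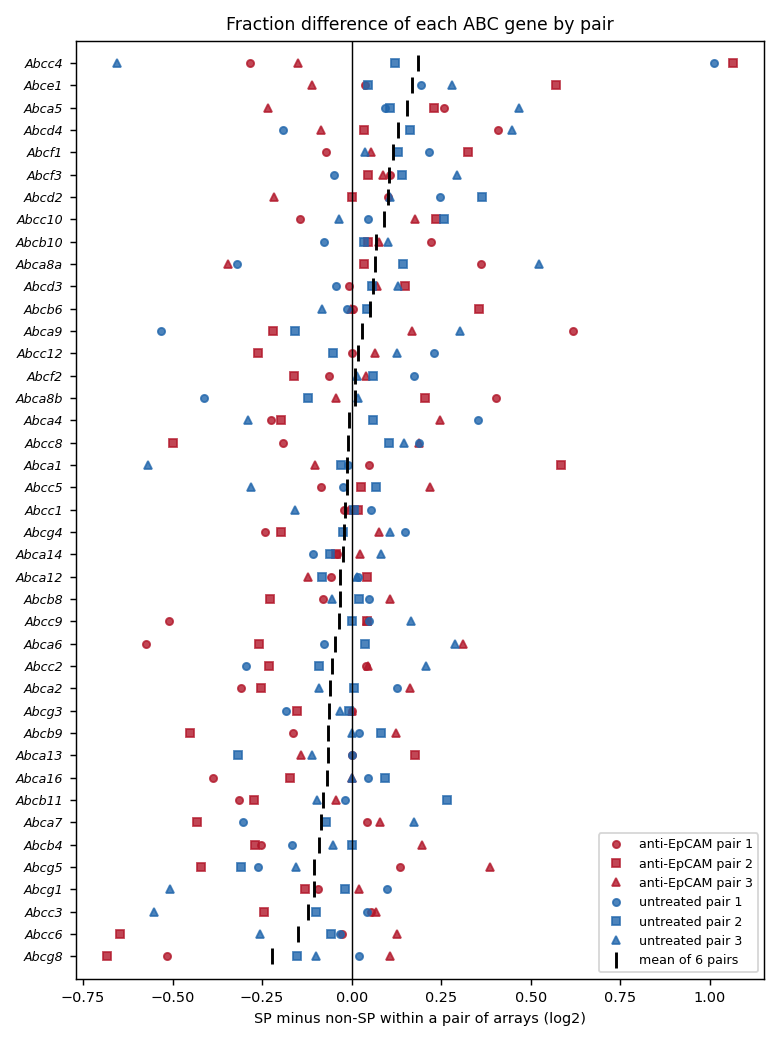
SP minus non-SP difference within each of the 6 pairs of arrays for each of the 41 ABC genes, in log2 units, with red symbols for anti-EpCAM pairs, blue symbols for untreated pairs and a black bar for the mean of 6 pairs. No gene has all 6 symbols on 1 side of 0, and the means lie between -0.22 and 0.19.

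Abcg8 and Abcg5 form a heterodimer that secretes sterols in liver and gut, and their genes lie head to head on chromosome 17. Abcg8 had 7.15, 6.87 and 7.22 in SP cells, against 7.67, 7.55 and 7.12 in non-SP cells with anti-EpCAM, and 7.30, 6.80 and 7.21 in SP, against 7.28, 6.95 and 7.31 in non-SP cells without antibody. The groups overlapped in both comparisons, with differences of -0.36 ± 0.20 and -0.08 ± 0.20. The 2 widest differences, -0.68 and -0.52, came from anti-EpCAM pairs 2 and 1, and without pair 2 the treated difference was -0.21. Abcg5 differed by 0.03 ± 0.20 with anti-EpCAM and -0.24 ± 0.20 without.

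At the other end of the family, Abcc6, Abcb4, Abcc3 and Abcg1 had lower mean values in SP cells, by -0.15, -0.09, -0.12 and -0.10. Without anti-EpCAM pair 2 the difference of Abcc6 was -0.03. Abcc1 differed by -0.02 ± 0.11, with an interval of -0.25 to 0.21. Abca1, Abca2 and Abca7 differed by -0.01 ± 0.38, -0.06 ± 0.10 and -0.09 ± 0.13. The differences within the 6 pairs had a standard deviation of 0.37 for Abca1 and 0.07 for Abcc1. The peroxisomal gene Abcd3 differed by 0.06 ± 0.12, and Abcb6, Abcb8 and Abcb9 by 0.05, -0.03 and -0.07.

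The interaction compares the antibody difference in SP cells with that in non-SP cells. No member had an unadjusted p under 0.05, against 0.236% of all genes, and the interval was inside 2-fold for 34 of 41. The lowest values were those of Abcc8, -0.31 ± 0.28, Abcg8, -0.29 ± 0.28, and Abcd2, -0.28 ± 0.21. The highest were Abca1 at 0.38 ± 0.75, Abca8b at 0.36 ± 0.39 and Abca9 at 0.32 ± 0.51. For the olfactory receptor genes the median interaction was -0.28, and 36 of 39 lay below the median of all genes. Abcc8 and Abcd2 do not pass that mark, and the part of this shift in their values was not tested.

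The A group genes Abca5, Abca6, Abca8a, Abca8b and Abca9 are neighbours on chromosome 11 and are thought to act on lipids. Abca9 had 6.50, 5.64 and 6.74 in SP and 5.88, 5.86 and 6.57 in non-SP cells with anti-EpCAM, against 6.11, 5.79 and 7.06 in SP and 6.65, 5.95 and 6.75 in non-SP cells without antibody. Replicate 3 held the highest value in all 4 groups, and it did so for Abca8b as well, with 5.09, 4.73 and 5.48 in SP and 4.68, 4.52 and 5.52 in non-SP cells with anti-EpCAM, against 4.89, 4.79 and 5.38 in SP and 5.30, 4.91 and 5.36 in non-SP cells without antibody. In Abca8a replicate 3 was highest in all groups but untreated non-SP cells, with 4.93 in replicate 1 and 4.89 in replicate 3. Replicate numbers pair the fractions and not the treatments, so a number shared across treatments does not mark 1 sample. Abca5 and Abca6 did not share the pattern of replicate 3. The antibody differences of these neighbours over both fractions were -0.34 for Abca5, -0.17 for Abca6 and 0.11 for Abca8a. They were -0.10 for Abca8b and -0.19 for Abca9, on both sides of the median of all genes.

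The A group genes known from other tissues gave values near the background. Abca4, a flippase of the retina, had a mean of 6.10 and an antibody difference of 0.17 ± 0.26. Abca12, a lipid transporter of the skin barrier, had 5.19 and -0.04 ± 0.22, and Abca13 had 3.84 and -0.20 ± 0.18. Abca6 and Abcg4, a relative of Abcg1 in brain, differed by -0.17 ± 0.25 and 0.10 ± 0.17.

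The ABC genes under other symbols with Abca3 and the Hoechst pumps, 7 in all, and the partners of the family likewise gave no called gene. The 7 had a median antibody difference of -0.14. Among the 10 measured genes of sterol sensing and its targets, Apoe differed by -0.29 ± 0.16 and Mylip by -0.31 ± 0.21 after anti-EpCAM, with a list median of -0.08. The 14 measured genes of the antioxidant and glutathione system, which supplies substrates to the C group, had a median of 0.00 and 12 of them lay above the median of all genes. Txnrd1 had 0.23 ± 0.27 and Keap1 -0.17 ± 0.17. The 9 nuclear receptor genes and targets of the drug response had a median of -0.12, with Arnt at -0.41 ± 0.22. The 18 partners of the mitochondrial, peroxisomal and ribosomal members had -0.11. Of these lists 0 genes had an unadjusted p under 0.05 over both fractions, against 2.36% of all genes lower and 0.17% higher. In non-SP cells Arnt (-0.60 ± 0.26) and Abcg2 (-0.35 ± 0.16) were lower with such a p, against 2.7% of all genes.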

How the data were processed

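RNA of 12 sorted samples of the line A2C12 was hybridised to Affymetrix mouse arrays. The authors deposited log2 values made with RMA (per the submitters' processing notes), a background correction, normalisation and summary over the probes of a set. The sources used here give neither the software nor which arrays were summarised together. Array medians ran from 5.72 to 6.06 over all 45101 probe sets. Precision is set by the small number of arrays.

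Of the probe sets 34958 had 1 symbol in the platform annotation, dated 2016, and the set with the highest mean stood for each of 18194 genes, without a filter on level. The 41 members had 84 probe sets, and all matched a RefSeq gene. Probe sets of 4 members carry s_at or x_at names and can take up related transcripts.

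Differences were tested with limma 3.58.1 in R 4.3.3 (lmFit and eBayes, 4 group means, 8 residual degrees of freedom, two-sided, Benjamini-Hochberg over all genes). For anti-EpCAM against untreated over both fractions the 2 arrays of a pair were averaged first, with 4 residual degrees of freedom. The fit was tested on simulated arrays drawn independently of each other, so the test does not cover the likeness within pairs. Of simulated 2-fold changes it recovered 45% to 62% within a fraction or treatment and 23% for the interaction. It recovered 85% for SP against non-SP over both treatments and 65% for anti-EpCAM over both fractions. Values were handled in Python 3.11.15 with numpy 2.4.6 and pandas 2.3.3, and figures were drawn with matplotlib 3.10.9.

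Within a pair, both arrays' departures from the mean of their groups had a correlation over genes of 0.55 to 0.84, and those of treated and untreated arrays of the same number at -0.38 to -0.005414. Replicate numbers therefore pair the fractions and not the treatments, from the data and not from the labels. The alternatives were a median centring, a second quantile normalisation, only genes above the median level, an intensity trend, the mean of all probe sets, a replicate block, each array or pair left out in turn and, added later, anti-EpCAM pair 2 left out.

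Named members were the 3 with the highest and the 3 with the lowest moderated t in a contrast, those without overlap between groups, and a fixed set, and every member is named once. The members, lists and roles were chosen with earlier results of these data known. Members of the fixed set that are not described were not analysed here.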

Additional observations from a re-analysis of the deposited data

How the results depend on the processing

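The counts of members and of all genes past the adjusted threshold stayed at 0 in each of 102 alternatives. With the replicate block for pairs or numbers, 0 members were called in all 7 contrasts, so the pairing changed no call. The median of the members minus that of all genes changed by more than its spread in 5 alternatives. With only genes above the median level, which left 18 members, it was 0.0523 for anti-EpCAM in non-SP cells and -0.0514 for the interaction. With the mean of all probe sets it was -0.0189 for anti-EpCAM in SP cells. With 1 array left out in turn it ran from -0.0511 to 0.0396 for anti-EpCAM in non-SP cells, where the highest value came without untreated non-SP replicate 3. It ran from 0.0052 to 0.116 in SP cells, where the lowest came without untreated SP replicate 2. Among the named members 578 values under alternatives kept their direction or had none beyond their standard error in the fit read above. Of the differences beyond their standard error, 2 changed sign, both with the mean of all probe sets. These were 0.00392 for Abcc12 (anti-EpCAM, both fractions) and 0.00408 for Abcd2 (interaction). Smaller differences changed sign too, such as that of Abcg1 (anti-EpCAM, both fractions), which reached -0.04 with 1 pair left out. The cause of these changes was not tested. The number of members with an unadjusted p under 0.05 was the count that moved most. It went from 8 to 1 for anti-EpCAM in SP cells after median centring, and to 4 without SP anti-EpCAM replicate 3. Shares of all genes with 1 array left out are not given, so a change in the whole array is not told apart.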

Other observations

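Other probe sets of the members, which the comparisons do not use, gave values of their own, named here after they were seen. The third probe set of Abce1, with a mean of 5.06, differed between anti-EpCAM and untreated cells by -0.59 in SP and -1.20 in non-SP cells, while the 2 brighter sets of this gene stayed within -0.04 and -0.01. A second probe set of Abcg1 differed by -0.52 in SP and -0.43 in non-SP cells, against 0.22 and 0.15 for the set read above. A second probe set of Abcd2 differed by -0.55 in SP and -0.57 in non-SP cells. The 2 remaining sets of Abcd2 gave 0.01 and -0.09 in SP and -0.30 and -0.05 in non-SP cells, against -0.46 and -0.18 for the set read above. The 2 other probe sets of Abcf3, the translation regulator, differed over both fractions by -0.27 and -0.46, in the direction of the set read above at -0.18. Among 16 other probe sets above the olfactory receptor mark, 11 had the sign of their gene's first set for anti-EpCAM over both fractions, 12 for SP against non-SP over both treatments and 5 for the interaction.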
